A study of Mus musculus with 2 samples.

Results

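The 41 genes described here encode the extracellular side of Wnt signalling in the mouse: 19 Wnt ligands, 10 Frizzled receptors, 4 secreted Frizzled-related proteins (Sfrp), 4 Dickkopf proteins (Dkk) and 4 R-spondins (Rspo). They were chosen by symbol, as the stems Wnt, Fzd, Sfrp, Dkk or Rspo followed by a number and at most the letter a or b, and no measured value was used. They are 41 of 55536 annotated genes and of 22028 annotated protein-coding genes. Their RNA was measured by total RNA sequencing of calf muscle, the gastrocnemius, of B6CASTF1/J mice, a first-generation cross of the B6 and CAST strains. All animals in the data were males aged 10 days, with no treatment labelled, and each library was made from 300 ng of RNA to which ERCC spike-in RNAs were added. There was 1 group of 2 libraries, replicate 1 and replicate 2, which the labels describe as biological replicates from differently numbered animals that carry the same donor code. With no second condition and n = 2, no test was made, and the spread between the libraries is the only replicate error. The tissue is whole muscle, so fewer cells of a type and less RNA per cell cannot be told apart in any difference between the libraries.

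Wnt proteins are secreted, lipid-modified glycoproteins that bind Frizzled receptors at the cell surface. Together with the coreceptors Lrp5 and Lrp6 they stabilise beta-catenin, and with other partners they act through the planar polarity and calcium branches. Secreted Frizzled-related proteins bind Wnts or Frizzleds, Dickkopf proteins such as Dkk1 and Dkk2 bind the coreceptors, and R-spondins act through Lgr receptors to keep Frizzleds from being removed from the membrane. In skeletal muscle, Wnt signalling is known for its part in embryonic myogenesis, in the activity of satellite cells and of fibro-adipogenic cells, and at the neuromuscular junction.

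The depth was 38874862 expected counts for replicate 1 and 38160786 for replicate 2, of which the 41 genes took 14270 and 12842 counts. Spike-ins took 0.741% and 0.735% of the counts, and the 7SL RNA genes took 30.2% and 29.8% of the TPM (transcripts counted per unit of length and scaled to a common total, the unit of all levels here). Muscle fibre markers were at 1 TPM or more in 6 of 6 cases, with Acta1, skeletal alpha-actin, at 22684 and 24109.5 TPM. The 5 erythroid markers summed to 1138 and 2082 TPM and were all past 1.5-fold in favour of replicate 2 (median log2 ratio 0.92). Cartilage and bone markers were at 1 TPM or more in both libraries in 2 of 6 cases. These were Col2a1 at 14.3 and 13.6 TPM and Acan at 1.89 and 1.61 TPM. Of the 4 skin keratinocyte markers, 1 was at 1 TPM or more in both libraries, Krt10 at 2.80 and 2.94 TPM. Krt5 was at 0.03 and 0 TPM, Krt14 at 0.02 and 0 TPM and Krt1 at 0 and 0.01 TPM.

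A pair of coding stretches shows what the ligands and the receptors have in common and is printed for the genes with the higher levels and for a contrasting member. In the ligands it is the stretch around the serine to which the acyltransferase Porcn attaches a fatty acid. It was found in 19 of 19 Wnt genes, and 11 of its 24 bases were identical in the 18 genes compared base by base. The capitals mark the serine codon, the positions are on mm10, and the bases are those of GENCODE M21 transcripts. The stretches lie in coding exons, at chr4:137296345-137296368 (+ strand, exon 5 of 5) for Wnt4, chr14:28522515-28522538 (+, exon 5 of 5) for Wnt5a, chr11:59330926-59330949 (+, exon 4 of 4) for Wnt9a, chr7:98850260-98850283 (+, exon 4 of 5) for Wnt11, chr6:119433800-119433823 (-, exon 5 of 5) for Wnt5b and chr11:59250053-59250076 (-, exon 4 of 4) for Wnt3a, which had no counts.
Wnt4: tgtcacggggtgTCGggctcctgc
Wnt5a: tgtcatggagtgTCTggctcctgt
Wnt9a: tgccatggtgtgTCTggctcctgc
Wnt11: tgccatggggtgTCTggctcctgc
Wnt5b: tgtcacggagtcTCCgggtcctgc
Wnt3a: tgccacgggctaTCTggcagctgt

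In the receptors it is the stretch after the last membrane-spanning segment that begins with lysine and threonine and ends with tryptophan, through which Frizzleds bind Dishevelled. It was found in 10 of 10 Frizzled genes, and 7 of its 18 bases were identical in the 9 genes compared. Here the capitals mark the codons of the lysine, the threonine and the tryptophan. The stretches lie at chr7:89408241-89408258 (+ strand, exon 2 of 2) for Fzd4, chr1:59484607-59484624 (+, exon 1 of 1) for Fzd7, chr5:4755706-4755723 (-, exon 1 of 1) for Fzd1, chr5:135249416-135249433 (-, exon 1 of 1) for Fzd9, chr15:39033949-39033966 (+, exon 5 of 7) for Fzd6 and chr14:65212107-65212124 (-, exon 5 of 7) for Fzd3, the only Frizzled under 1 TPM in both libraries.
Fzd4: AAAACTcttcacacgTGG
Fzd7: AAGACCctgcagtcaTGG
Fzd1: AAGACActgaattccTGG
Fzd9: AAGACTtttcagactTGG
Fzd6: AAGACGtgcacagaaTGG
Fzd3: AAGACAtgctttgaaTGG

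At 1 TPM or more in both libraries were 21 of the 41 genes, beside 51.4% of all annotated protein-coding genes. The families differed in this share: 9 of 10 Frizzleds and 4 of 4 Sfrp genes reached it, but 5 of 19 Wnts, 2 of 4 Dkk genes and 1 of 4 R-spondins. Among the genes that reached it, the median level was 4.62 TPM, against 8.48 TPM for the protein-coding genes that did. The 41 genes summed to 115.6 and 105.7 TPM. Frizzleds took 50.8% ± 2.23 of that sum (SD, n = 2), Wnts 22.1% ± 1.06, Sfrp genes 17.6% ± 0.969, Dkk genes 8.21% ± 0.463 and R-spondins 1.30% ± 0.255.

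**Figure D1:**
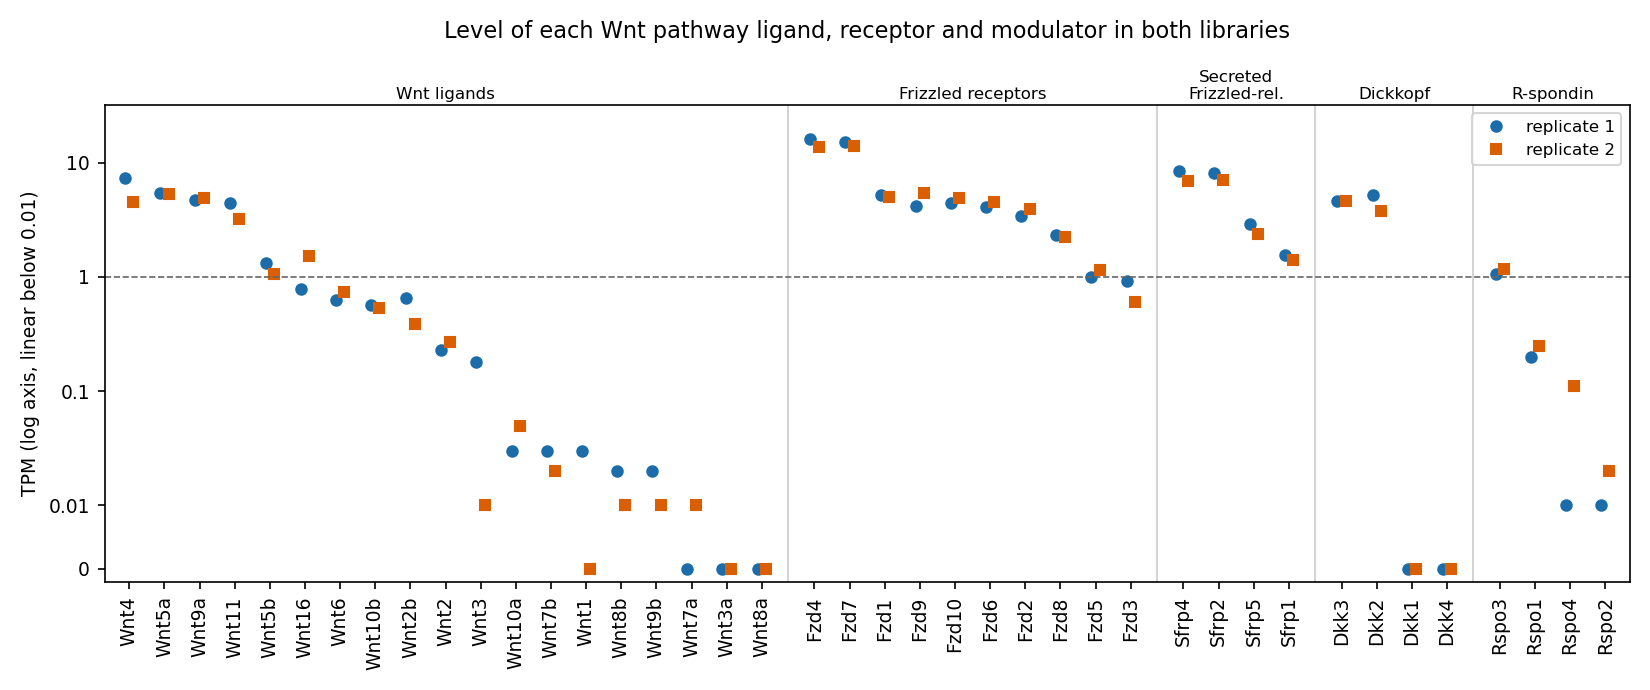
TPM (log axis, linear below 0.01) of the 41 genes in replicate 1 (circles) and replicate 2 (squares), grouped by family, with a dashed line at 1 TPM. Fzd4 and Fzd7 lie highest at 13.6 to 16.0 TPM, all 4 Sfrp genes lie above the line, and 8 of the 19 Wnt genes had 3 counts or fewer in both libraries.

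Wnt4 and Wnt5a were the ligands with the highest mean levels, and Wnt4 was the least even of the 5 ligands at 1 TPM or more in both libraries. Their order depended on the quantification: Wnt4 had the higher mean in the first table, 5.90 against 5.38 TPM, but Wnt5a did by posterior mean TPM, 5.97 against 5.79, and in the second deposited table, made by another quantification, 9.24 against 7.94. Wnt4 is described first. It is a ligand with roles in kidney and gonad development and in postsynaptic patterning of muscle. Its level was 7.32 TPM in replicate 1 against 4.48 TPM in replicate 2, from 972 and 595 counts. Replicate 1 is the higher library, and the log2 ratio of replicate 2 over replicate 1 was -0.64, with a 95% counting interval of -0.79 to -0.49. A part of its transcript, 3.85% of the 50-base words, also occurs in transcripts of other genes, while 34 of the 41 genes shared no such word with any other gene. The share of Wnt4 in the summed Wnt level was 27.7% in replicate 1 and 19.8% in replicate 2.

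Wnt5a, a ligand of the planar polarity branch, was close between the libraries. It stood at 5.43 and 5.33 TPM, from 919 and 875 counts. Its log2 ratio was -0.00098 (interval -0.14 to 0.13), so the libraries did not differ beyond counting error. In replicate 2 its level was above that of Wnt4, and in replicate 1 below it, so the order of these 2 ligands differed between the libraries.

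Wnt9a, a ligand known from joint and limb development, was also close between the libraries at 4.73 and 4.95 TPM (494 and 517 counts), with a log2 ratio of 0.14 (interval -0.05 to 0.32). Wnt11, a ligand of early myogenesis that acts mainly without beta-catenin, was at 4.47 TPM in replicate 1 against 3.24 TPM in replicate 2, from 218 and 163 counts. Its log2 ratio of -0.35 had an interval of -0.65 to -0.05, which lies below 0. Wnt5b, the close paralog of Wnt5a, was just over the line at 1.32 and 1.06 TPM (92 and 78 counts). The coding bases of Wnt5a and Wnt5b were 76.3% identical, and neither shared a 50-base word with the other.

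Of the 14 other Wnt genes, Wnt16, a ligand studied in cortical bone, was the only one that crossed 1 TPM in a library in the first table. By posterior mean TPM it was over the line in both libraries, at 1.07 and 1.95 TPM, and in the second table both Wnt16, at 1.31 and 2.19 TPM, and Wnt6, at 1.07 and 1.34 TPM, were. Its level was 0.79 TPM (replicate 1) and 1.51 TPM (replicate 2), from 38 and 78 counts. Replicate 2 is the higher library, with a log2 ratio of 1.10 (interval 0.53 to 1.71). Below it stood Wnt6 at 0.63 and 0.74 TPM, Wnt10b, a ligand that holds back adipogenesis, at 0.57 and 0.53 TPM, and Wnt2b at 0.66 and 0.39 TPM. Wnt2b had 67 and 41 counts and a log2 ratio of -0.63, with an interval of -1.24 to -0.06. Wnt2 followed at 0.23 and 0.27 TPM.

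Wnt3 had 17 counts in replicate 1 and 1 count in replicate 2, a log2 ratio of -3.49 with a counting interval of -9.40 to -1.34. Counts were higher in replicate 1, but the gene was at 0.18 and 0.01 TPM, far below the ligands named above. Wnt10a, Wnt7b, Wnt1, Wnt8b, Wnt9b and Wnt7a had between 0 and 3 counts in each library and levels of at most 0.05 TPM in the first table. By posterior mean TPM, Wnt7a was at 0.32 and 0.33, Wnt7b at 0.18 and 0.17 and Wnt10a at 0.09 and 0.12, and the others were at most at 0.07. In the second table Wnt10a was at 0.036 and 0.134 TPM. Wnt3a and Wnt8a had no count in either library. A count of 0 allows up to 3 counts, which for Wnt3a is 0.0348 and 0.0347 TPM and for Wnt8a 0.0562 and 0.0561 TPM. The depth thus limits what can be said of these ligands to levels below those values.

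Several Wnt genes lie next to each other, and the neighbours had unlike levels. Wnt3a and Wnt9a are divergent neighbours on chromosome 11, 16.2 kb apart with no protein-coding gene between them, and had 0 and 0 TPM against 4.73 and 4.95 TPM. Wnt10b and Wnt1 on chromosome 15 are divergent, 11.7 kb apart, and had 0.57 and 0.53 TPM against 0.03 and 0 TPM. Wnt6 and Wnt10a on chromosome 1 lie in tandem, 6.19 kb apart, and had 0.63 and 0.74 TPM against 0.03 and 0.05 TPM. In these 3 pairs the ranges of the 2 libraries did not overlap between the neighbours. Wnt9b and Wnt3, 24.3 kb apart on chromosome 11, were both below 0.2 TPM, and their ranges did overlap.

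**Figure D2:**
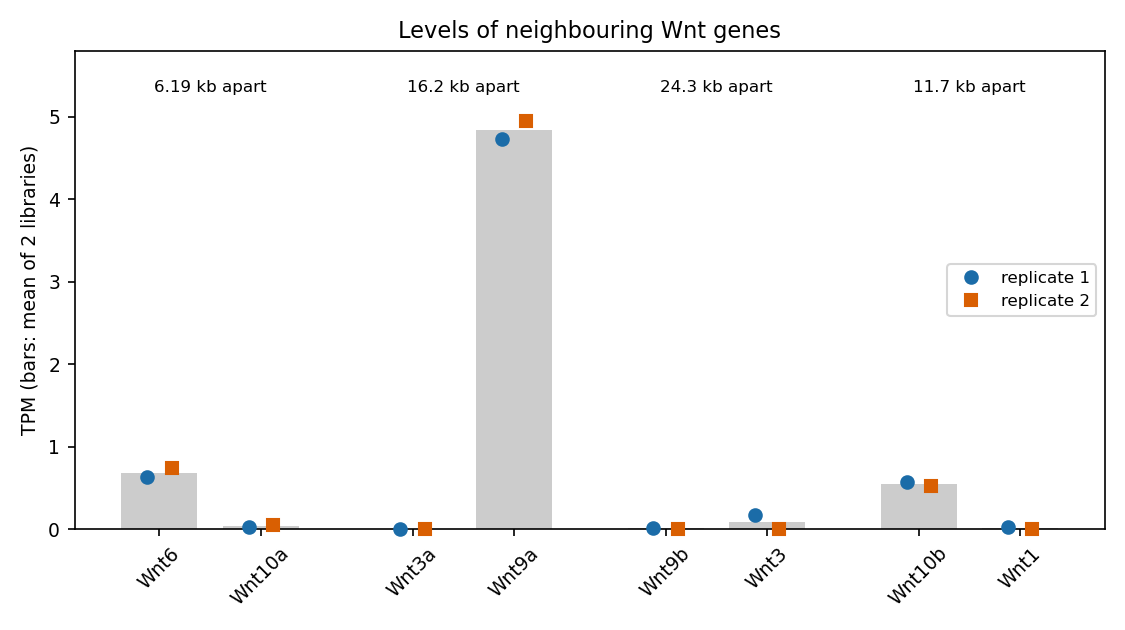
TPM of the 4 pairs of neighbouring Wnt genes, with the distance between the genes in kb above each pair. Grey bars are means of the 2 libraries and points are the libraries. Wnt9a stands at 4.73 and 4.95 TPM beside Wnt3a at 0.

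The promoters of the Wnt3a and Wnt9a pair are printed because, of the 4 pairs, these neighbours differ most in level. Both windows run from 250 bases before to 50 bases after the RefSeq start, on GRCm38.p6, 5′ to 3′ on the gene's strand, with each CG dinucleotide in capitals. The Wnt9a window, chr11:59306680-59306979 (+), holds 58 CG dinucleotides, and the Wnt3a window, chr11:59290702-59291001 (-), holds 45. Over all 32851 promoters in the RefSeq table the median was 7, so both windows are rich in CG whether or not counts were found. DNA methylation was not measured here.
Wnt9a: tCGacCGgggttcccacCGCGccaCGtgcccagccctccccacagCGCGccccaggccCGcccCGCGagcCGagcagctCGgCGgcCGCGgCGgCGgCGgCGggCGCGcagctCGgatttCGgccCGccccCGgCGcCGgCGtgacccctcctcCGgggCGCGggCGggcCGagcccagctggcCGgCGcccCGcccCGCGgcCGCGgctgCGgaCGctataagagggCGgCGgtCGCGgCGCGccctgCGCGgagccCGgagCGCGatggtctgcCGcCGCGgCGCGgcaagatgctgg
Wnt3a: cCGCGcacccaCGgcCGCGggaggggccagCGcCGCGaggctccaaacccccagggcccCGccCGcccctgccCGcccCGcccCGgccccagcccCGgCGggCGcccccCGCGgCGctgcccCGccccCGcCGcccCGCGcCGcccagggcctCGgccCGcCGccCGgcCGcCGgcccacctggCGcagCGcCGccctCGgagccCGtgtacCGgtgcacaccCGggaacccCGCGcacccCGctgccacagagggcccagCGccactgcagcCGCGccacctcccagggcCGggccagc

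In the same table, 30 promoters of 27 of the 41 genes had a median of 28 CG dinucleotides, and that median was 28 both for the 16 promoters of genes at 1 TPM or more in both libraries and for the 14 others. Short motifs were counted on both strands. The TCF/LEF motif CTTTGAA was in 1 of 30 promoters, that of Dkk1, against 5.14% of all promoters, and CTTTGAT, which differs from it only in the last base, was in those of Wnt11 and Wnt5b, 2 of 30, against 3.73%. The E-box CAGCTG was in 2 of 30, those of Fzd10 and Wnt9a, against 16.3%, and TATAAA was in 4 of 30 against 13.6%. These are matches of letters in these windows, not measured binding.

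Among the receptors, Fzd4 and Fzd7 had the highest levels of all 41 genes. Fzd4, the receptor of Wnt ligands and of norrin in blood vessels, was at 16.0 TPM in replicate 1 against 13.6 TPM in replicate 2, from 3441 and 2924 counts. Its log2 ratio was -0.17, with an interval of -0.24 to -0.09. Fzd7, a receptor described on satellite cells, was at 15.3 and 14.0 TPM, from 2193 and 2017 counts, with a log2 ratio of -0.05 and an interval of -0.14 to 0.04. Fzd4 was above Fzd7 in replicate 1 and below it in replicate 2, so the order of the pair is within its spread. Both were above every other gene of the set in both libraries.

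A second tier of Frizzleds lay between 3 and 6 TPM. Fzd1, the close relative of Fzd2 and Fzd7, was at 5.25 and 4.96 TPM, with a log2 ratio of -0.01 (interval -0.17 to 0.15). Fzd9, a receptor described at the neuromuscular junction, was at 4.17 TPM in replicate 1 against 5.39 TPM in replicate 2, from 297 and 384 counts. With a log2 ratio of 0.44 (interval 0.22 to 0.66) it was the Frizzled with the largest difference upward in replicate 2.

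Its closest paralog, Fzd10, was at 4.42 and 4.93 TPM and also higher in replicate 2, by 0.23 on the log2 scale (interval 0.04 to 0.41). Fzd2 was at 3.40 and 3.90 TPM, higher in replicate 2 by 0.27 (interval 0.07 to 0.47). Fzd6, a receptor of planar polarity in skin and hair, was at 4.13 and 4.56 TPM with a log2 ratio of 0.19, and its interval of -0.02 to 0.40 includes 0. For Fzd9, Fzd10 and Fzd2 the difference was thus larger than counting error, and in each case replicate 2 was the higher library.

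At the lower end, Fzd8 was at 2.31 and 2.24 TPM and Fzd5 at 1.00 and 1.14 TPM, neither with an interval that excludes 0. On the opposite strand a gene model, Gm38058, overlaps 1233 exonic bases of Fzd5 and itself had 1 and 2 counts. Fzd3, a receptor of axon guidance, was at 0.92 TPM in replicate 1 against 0.60 TPM in replicate 2. It had 337 and 246 counts on a longer transcript than that of Fzd5, which had 205 and 221. Its log2 ratio of -0.38 had an interval of -0.63 to -0.14. Of the genes nearest the 1 TPM line, Fzd5 and Rspo3 were just inside it and Wnt16 and Fzd3 just outside.

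Paralogs could in principle share reads. The highest identity of coding bases among the Frizzleds was 77.4%, between Fzd2 and Fzd7, followed by 72.2% between Fzd1 and Fzd2 and 69.6% between Fzd9 and Fzd10. The median over the 45 Frizzled pairs was 57.1%. No 50-base word of Fzd1, Fzd2, Fzd7, Fzd9 or Fzd10 occurred in a transcript of another gene, and Fzd4 shared 0.12% of its words.

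All 4 Sfrp genes were above 1 TPM, and all 4 were lower in replicate 2. Sfrp4 was at 8.48 TPM in replicate 1 against 6.95 TPM in replicate 2, from 475 and 357 counts, and was the only one of the 4 whose interval lay below 0, with a log2 ratio of -0.34 (interval -0.54 to -0.14). Sfrp2, which is made by fibroblasts in many tissues, was at 8.18 and 7.12 TPM with a log2 ratio of -0.11 (interval -0.30 to 0.08). The ranges of Sfrp4 and Sfrp2 overlapped, so these 2 genes had no order beyond their spread.

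Sfrp5 was at 2.89 and 2.36 TPM and Sfrp1 at 1.55 and 1.41 TPM. Their log2 ratios were -0.22 (interval -0.56 to 0.11) and -0.06 (interval -0.35 to 0.22). Summed over the 4 genes, 1342 counts in replicate 1 stood against 1117 in replicate 2, a log2 ratio of -0.19 with an interval of -0.31 to -0.08. Markers of fibro-adipogenic cells and fibroblasts were at 1 TPM or more in 10 of 10 cases. Their summed levels were 1751 and 1571 TPM, with 6 of 10 lower in replicate 2 and a median log2 ratio of -0.04. Their part in the Sfrp difference was not tested.

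Of the Dickkopf genes, Dkk3 and Dkk2 were measured at similar mean levels and Dkk1 and Dkk4 had no counts. Dkk3, a divergent member whose role in Wnt signalling differs between settings, was at 4.65 and 4.58 TPM with a log2 ratio of 0.05 (interval -0.14 to 0.23). Dkk2, a coreceptor-binding modulator, was at 5.22 TPM in replicate 1 against 3.75 TPM in replicate 2, from 610 and 439 counts. Replicate 1 was higher, and the log2 ratio of -0.40 had an interval of -0.59 to -0.23. Dkk2 was above Dkk3 in replicate 1 and below it in replicate 2.

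For Dkk1 and Dkk4, the 3 counts that a count of 0 allows correspond to 0.0397 and 0.0761 TPM in replicate 1. The second table listed Dkk1 at 6.21 and 2.60 estimated counts (0.115 and 0.0477 TPM) and Dkk4 at 2 and 0 (0.0793 and 0 TPM). In replicate 1 both levels are above the limits given, which therefore hold for the first table only. Of the 50-base words of Dkk1, 1.18% also occur in transcripts of other genes. Both tables thus place Dkk1 below 0.2 TPM.

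Among the R-spondins, Rspo3, known as a vascular and stromal R-spondin, was the one above 1 TPM. It stood at 1.07 and 1.18 TPM from 89 and 107 counts, with a log2 ratio of 0.33 and an interval of -0.08 to 0.76 that includes 0. Rspo1 was at 0.20 and 0.25 TPM from 10 and 12 counts. Rspo4 had 1 and 8 counts, a log2 ratio of 2.56 with an interval of 0.17 to 8.54, and Rspo2 had 1 and 2 counts. Rspo3 made up 82.9% and 75.6% of the summed R-spondin level.

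In the order of mean levels, most neighbours were not separated by the 2 libraries. After Fzd4 and Fzd7, the ranges of Sfrp4, Sfrp2, Wnt4 and Wnt5a overlapped in a chain, each with the next. From Wnt9a to Fzd2, the ranges of 8 genes again overlapped in a chain, Wnt9a, Fzd9, Fzd10, Dkk3, Dkk2, Fzd6, Wnt11 and Fzd2. Below them, Sfrp5, Fzd8 and Sfrp1 were each separated from the next gene in both libraries. Only genes next to each other in mean level were compared, so the chains are not separate tiers. The range of Wnt4, 4.48 to 7.32 TPM, also held those of Fzd1, at 5.25 and 4.96 TPM, and of Wnt9a, at 4.73 and 4.95 TPM.

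Differences between the libraries were compared for the 26 of the 41 genes whose expected count averaged 20 or more, after TMM scaling, which aligns the bulk of the genes. The genes left out were 10 of 19 Wnts, 2 of 4 Dkk genes and 3 of 4 R-spondins. Of the 26, 14 were lower and 12 higher in replicate 2, and the median log2 ratio was -0.006, beside 0.014 over 13137 protein-coding genes under the same filter. Wnt4 and Wnt2b, 2 of 26, were at least 1.5-fold lower in replicate 2, beside 2.44% of protein-coding genes. Wnt16, 1 of 26, was at least 1.5-fold higher, beside 1.88%. Counting intervals lay below 0 for 7 of 26, beside 13.2% of protein-coding genes, and above 0 for 4 of 26, beside 19.1%.

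The 7 lower genes were Wnt4, Wnt2b, Dkk2, Fzd3, Wnt11, Sfrp4 and Fzd4, and the 4 higher ones Wnt16, Fzd9, Fzd2 and Fzd10. The absolute log2 ratio had a median of 0.21 over the 26 genes and of 0.12 over the protein-coding genes. In the range of 100 to 1000 counts, where 18 of the 26 lie, the medians were 0.21 and 0.12 as well. By family, 6 of 10 Frizzleds were higher in replicate 2, 4 of 4 Sfrp genes lower, and 5 of the 9 Wnts with enough counts lower, beside 46.7% of the 13137 protein-coding genes lower. Summed over all genes of each family, also those left out above, the log2 ratio was -0.18 for the Wnts (interval -0.26 to -0.10). It was -0.03 for the Frizzleds (interval -0.07 to 0.01), -0.18 for the Dkk genes (interval -0.31 to -0.06) and 0.42 for the R-spondins (interval 0.04 to 0.81). These sums are not shifts of whole families. The 9 Wnts with enough counts had a median of -0.00098, with Wnt4 at -0.64. Dkk2 was at -0.40 and Dkk3 at 0.05, and Dkk1 and Dkk4 had no expected counts. For Rspo3, the only R-spondin with enough counts, the interval of -0.08 to 0.76 includes 0.

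**Figure D3:**
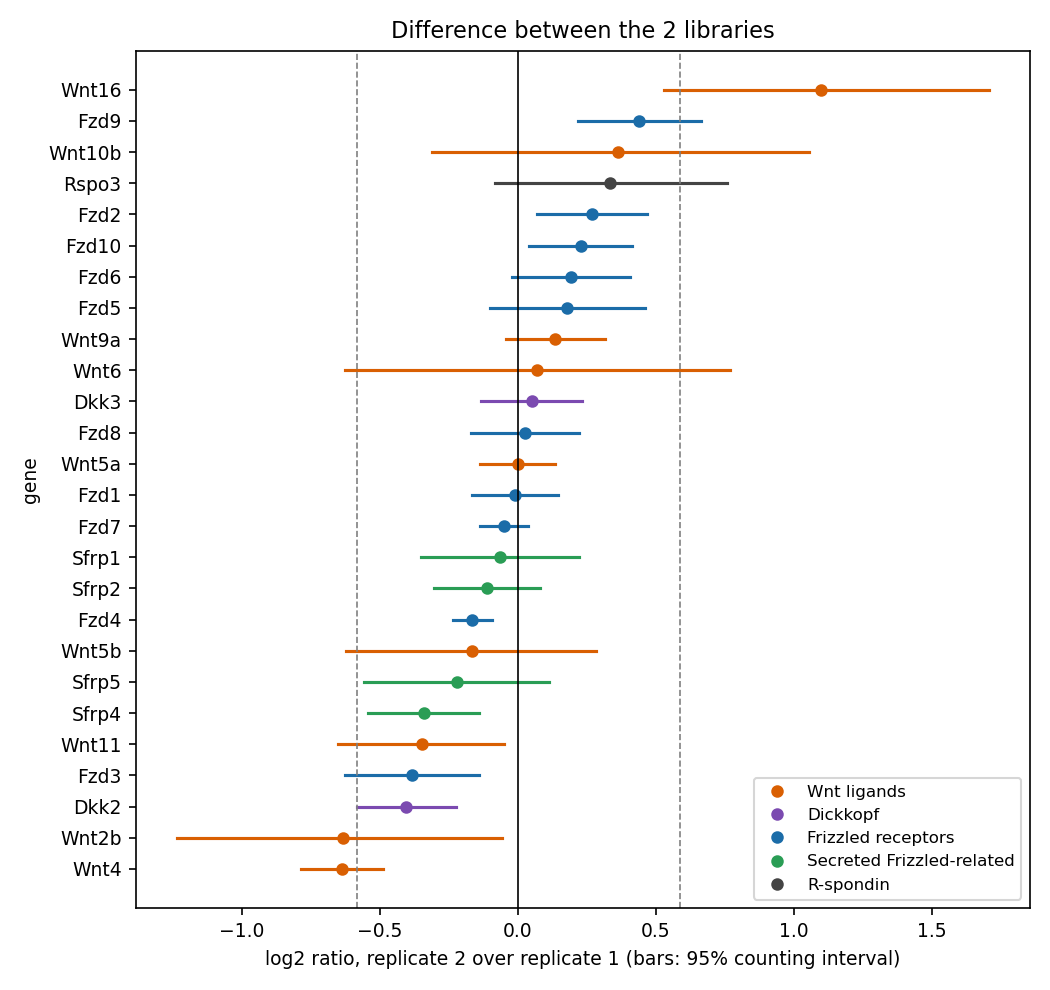
Log2 ratio of replicate 2 over replicate 1 for the 26 genes whose expected count averaged 20 or more, coloured by family, with 95% counting intervals and dashed lines at a 1.5-fold difference. Wnt4 at -0.64 and Wnt16 at 1.10 lie at the ends, and 11 intervals exclude 0.

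Markers of the other cell types of muscle moved both ways between the libraries. Endothelial markers were higher in replicate 2 in 6 of 6 cases, with sums of 149.3 and 161 TPM and a median log2 ratio of 0.20. Mural cell markers were higher in 6 of 6 (363.8 and 418.5 TPM, median 0.20), tendon markers in 6 of 6 (227.9 and 228.1 TPM, median 0.10) and satellite cell markers in 6 of 8 (81.0 and 85.7 TPM, median 0.12). Schwann cell markers were lower in 5 of 6, with sums of 496.7 and 428.3 TPM and a median of -0.09. Adipocyte markers were lower in 4 of 5, with Plin1 past 1.5-fold at a log2 ratio of -0.86. Their sums were 153.3 and 173.8 TPM, of which Fabp4, the 1 that was higher, took 137.1 and 160.85 TPM (log2 ratio 0.28). Macrophage and leukocyte markers were higher in 4 of 6, with sums of 48.4 TPM in both. The part of these cells in the differences of Wnt4, Dkk2, Fzd4, Fzd9 and Wnt16 was not tested.

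At the level of transcripts, 12 of the 21 genes above 1 TPM have 1 annotated transcript, among them Wnt4, Fzd4 and Fzd7. Their gene levels thus do not depend on dividing reads between transcripts of the same gene. Reads from words shared with other genes, as in Wnt4 and Fzd4, may still be divided between genes. Of the other 9, 6 had the same leading transcript in both libraries and both deposited tables. Wnt9a-202 took 100% of Wnt9a. It starts at chr11:59306930 and Wnt9a-201 at chr11:59306928, with the same end, so reads can hardly tell them apart. Sfrp2-201 took 94.1% and 96.3% of Sfrp2. Sfrp4-201 took 97.3% and 80.3% of Sfrp4, but 68.6% and 61.1% in the second table, which gave Sfrp4-204 26.0% and 34.6%.

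Wnt5a was led by Wnt5a-201, which starts at chr14:28504750 and took 56.4% and 62.5% of the gene. Wnt5a-202 starts further downstream, at chr14:28511405, and took 28.3% in replicate 1 and 7.87% in replicate 2. Transcripts that are not annotated as protein-coding took 15.3% and 29.7% of Wnt5a. In the second table the libraries were closer, with 31.8% and 22.2% for Wnt5a-202 and 30.7% and 32.5% for the transcripts that are not protein-coding. For Wnt11 that share was 42.9% and 52.4%, and 30.4% and 36.6% in the second table. For Fzd6 it was 40.7% and 42.6%, but 43.1% and 34.3% in the second table, where replicate 1 was the higher library.

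The leading transcript of Wnt11, Wnt5b and Fzd6 depended on the library or the table. Wnt11 was led by Wnt11-205 in replicate 1 with 40.6%, and by Wnt11-202, a transcript annotated for nonsense-mediated decay, in replicate 2 with 28.5%. Wnt5b was given to Wnt5b-203 (59.2%) and Wnt5b-202 (40.8%) in replicate 1 and wholly to Wnt5b-204 in replicate 2, while the second table gave 59.7% to Wnt5b-201 in replicate 1. With 92 and 78 counts and 4 transcripts with different annotated starts, the division of Wnt5b is not determined by these data. Fzd6 was led by Fzd6-201 with 35.0% and 34.2% in the first table and by Fzd6-202 with 44.3% and 65.7% in the second.

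**Figure D4:**
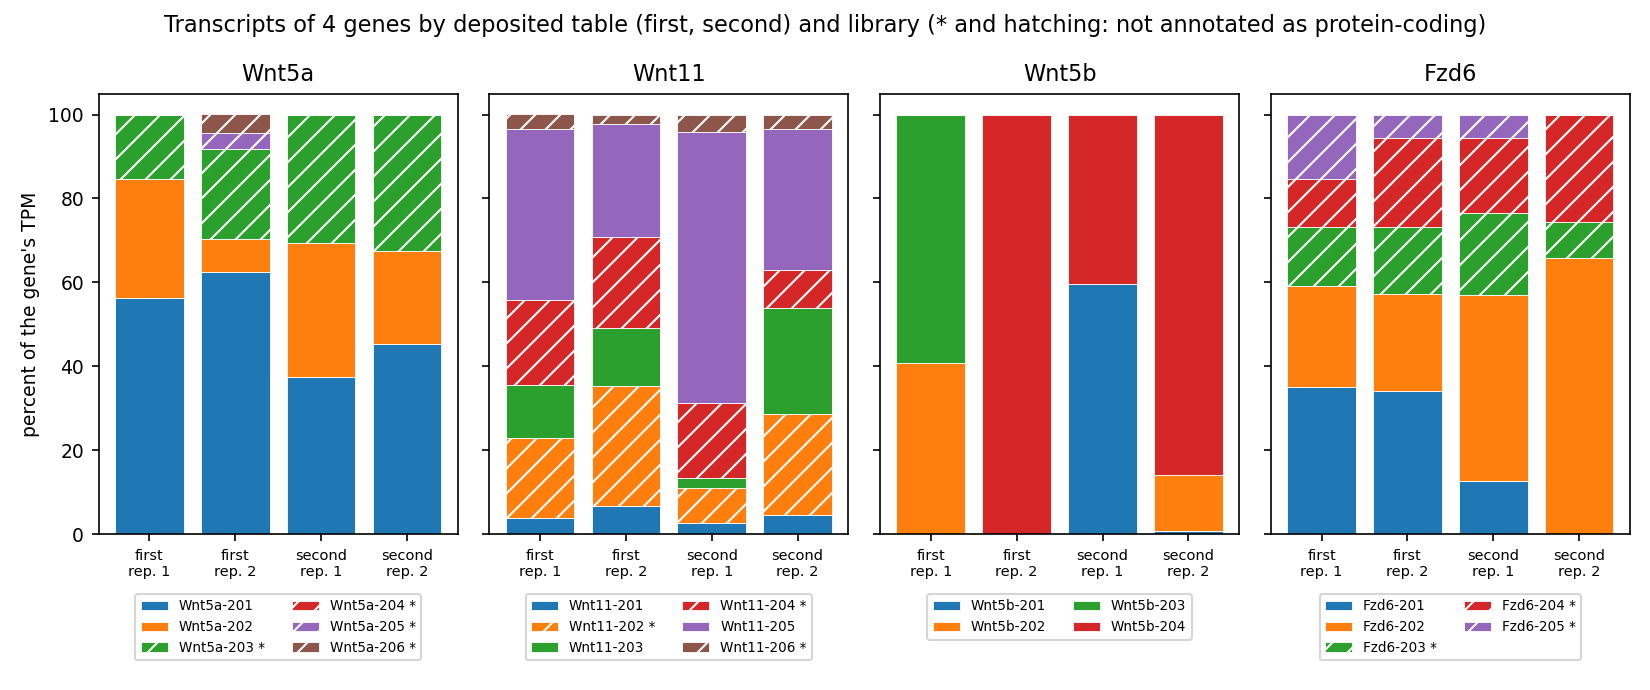
Percent of each gene's TPM by transcript for Wnt5a, Wnt11, Wnt5b and Fzd6, in the first and second deposited transcript tables and both libraries. Hatched parts and asterisks mark transcripts not annotated as protein-coding. The Wnt5b bars differ in every table and library, whereas Wnt5a-201 leads in all 4 bars of Wnt5a.

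The second table gave higher TPM for all 21 genes above 1 TPM. Over the 26 genes with enough counts for a ratio, the median was 1.42 times the first table. The range was 1.28 to 1.76, and the highest, Wnt6, is not among the 21. Over protein-coding genes the median was 1.47. The order of the families was the same, and Fzd4 was at 21.6 and 18.2 TPM, Fzd7 at 21.2 and 18.9 TPM, Wnt4 at 9.97 and 5.91 TPM and Wnt5a at 9.74 and 8.73 TPM there.

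Other genes of the pathway were taken from 8 lists by role. Their counts at 1 TPM or more are to be read beside the 51.4% of all annotated protein-coding genes that reached it in both libraries. Ratios and counts past 1.5-fold in these lists cover only the genes that averaged at least 20 expected counts, in the first table. Of the coreceptors and alternative receptors, 11 of 11 were at 1 TPM or more in both libraries and 0 differed by 1.5-fold. Ryk, a receptor for Wnts with an inactive kinase domain, was at 22.3 and 21.5 TPM, Lrp6 at 20.4 and 19.5 TPM and Lrp5 at 17.3 and 18.4 TPM. Lrp4, the agrin receptor of the neuromuscular junction, had the largest log2 ratio of the group, -0.18, at 8.88 and 7.59 TPM.

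Ligand processing and the heparan sulfate carriers were at 1 TPM or more in 10 of 10 cases, with 0 past 1.5-fold. The glypican Gpc1 was at 119.98 and 116.2 TPM, Gpc4 at 52.9 and 49.1 TPM and Gpc3 at 39.2 and 35.0 TPM. Porcn, which acylates the Wnt serine, was at 1.64 and 1.73 TPM, the lowest of the group. Receptor turnover genes were at 1 TPM or more in both libraries in 3 of 7 cases, close to the 51.4% of all protein-coding genes.

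Of these, Kremen1, a Dickkopf receptor, was at 29.5 and 32.2 TPM, the R-spondin receptor Lgr4 at 10.6 and 8.36 TPM and the ubiquitin ligase Znrf3 at 6.20 and 5.38 TPM. Lgr5, another R-spondin receptor, had 33 and 18 counts and a log2 ratio of -0.79 with an interval of -1.72 to 0.07. Among the genes of the 8 lists with enough counts it was the only one past 1.5-fold in the first table, and in the second table Tnfrsf19 was too. Rspo3, at 1.07 and 1.18 TPM, stood below the receptor Lgr4 in both libraries.

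Secreted modulators outside the 5 families reached 1 TPM in both libraries in 5 of 12 cases, and 0 of the 6 with enough counts were past 1.5-fold. Frzb, which belongs to the Sfrp family by structure but was not taken by its symbol, was at 23.6 and 23.2 TPM, above each of the 4 Sfrp genes. Igfbp4, an IGF-binding protein that also binds Frizzled and Lrp6, was at 72.98 and 69.9 TPM, and Wif1, which binds Wnts, at 7.46 and 6.34 TPM. Of the 6, Sostdc1 had the largest log2 ratio, 0.29, at 1.08 and 1.26 TPM.

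Inside the cell, 18 of 20 cytoplasmic transducers, 11 of 13 nuclear effectors and 20 of 22 genes of the planar polarity and calcium branch were at 1 TPM or more in both libraries, and 0 genes of these lists with enough counts were past 1.5-fold. Below that count, Celsr3 had 22 and 7 counts and a log2 ratio of -1.52 (interval -3.05 to -0.31), and is named after its values were seen. Ctnnb1, beta-catenin, was at 130.3 and 124.9 TPM, the kinase gene Csnk1a1 at 108.3 and 98.9 TPM and Tnks2 at 55.5 and 56.1 TPM. Among the cytoplasmic transducers with enough counts, Cxxc4 had the largest log2 ratio, 0.31, at 0.35 and 0.42 TPM. Bcl9l, a beta-catenin cofactor, led the nuclear list at 27.9 and 23.7 TPM, before Tle1 at 11.7 and 12.7 TPM and Cby1 at 10.6 and 8.88 TPM. Of that list, Tcf7 had the largest log2 ratio, -0.24, at 0.86 and 0.74 TPM. Camk2a, a calcium-dependent kinase, led the planar polarity and calcium list at 122.1 and 109.2 TPM. Rac1 was at 100.7 and 101.3 TPM and Rhoa at 89.9 and 86.75 TPM. Of its genes with enough counts, Nfatc2 had the largest log2 ratio, 0.34, at 3.49 and 4.23 TPM.

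The list of commonly used target genes held 13 symbols, with Wisp1 and Wisp2 as older names of Ccn4 and Ccn5. All 11 genes were found, and 7 were at 1 TPM or more in both libraries. Ccnd1, cyclin D1, was at 14.8 and 18.4 TPM, Fst, follistatin, at 9.60 and 8.12 TPM and Myc at 7.32 and 6.41 TPM. Tnfrsf19 had the largest log2 ratio, 0.58 (interval 0.38 to 0.78), at 3.23 and 5.08 TPM, just under 1.5-fold, and 0.65 in the second table, past 1.5-fold. These genes have other regulators as well, so their levels are given as levels only.

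**Figure D5:**
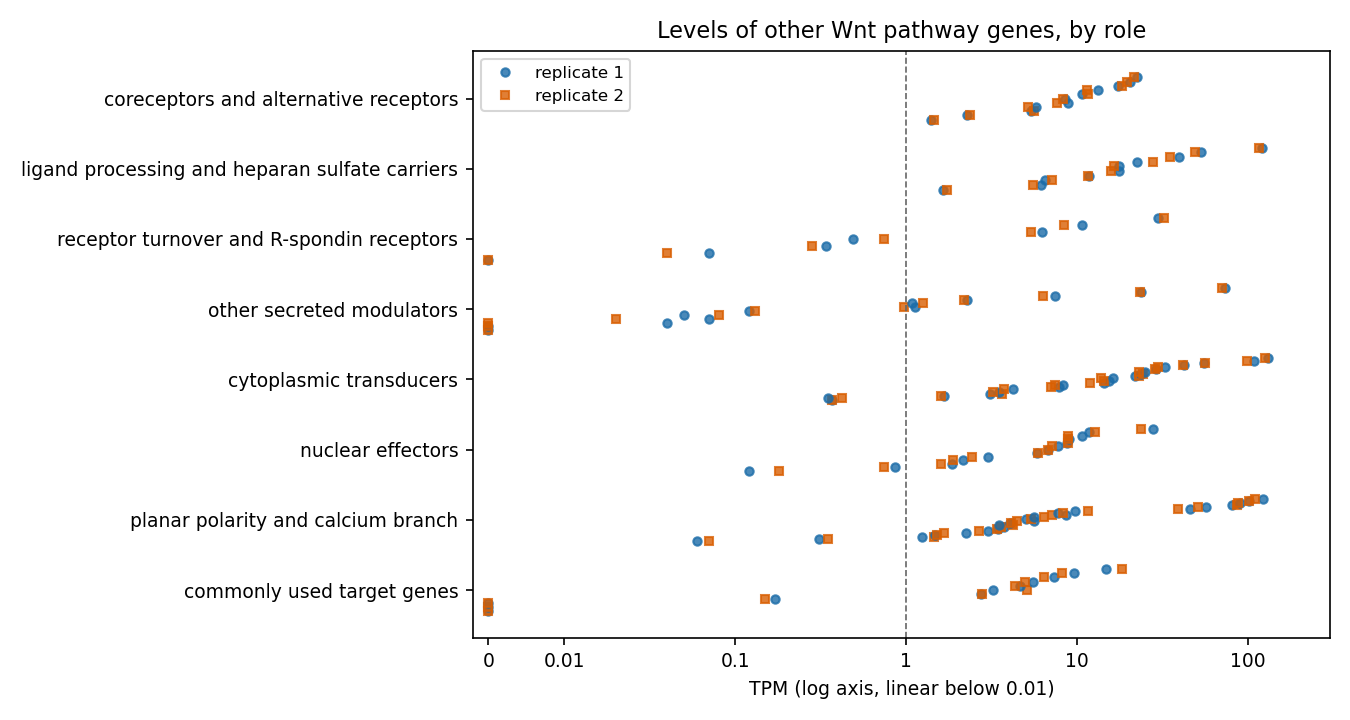
TPM (log axis, linear below 0.01) of the genes of 8 other Wnt pathway lists in replicate 1 (circles) and replicate 2 (squares), with a dashed line at 1 TPM. All 11 coreceptors and 10 carriers lie right of the line, as do 3 of 7 turnover genes and 5 of 12 other secreted modulators.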

How the data were processed

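The authors deposited, per library, gene and transcript tables in the column layout of RSEM, with mm10 as the assembly and GENCODE M21 as the annotation, per the labels and file headers. These deposited tables hold expected counts, posterior mean counts, TPM scaled over all features including spike-ins, and the percent of each gene's TPM in each transcript. The authors' other transcript table has kallisto's columns. Its deposited estimated counts and TPM were summed per gene (the second table). The aligner, program versions, read length and strand use were not given in the sources used here. Genes overlapped on the opposite strand are therefore uncertain.

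The genes were found by symbol in the second table and matched by gene identifier. The choice of these genes, and of the pathway and marker lists, was made with earlier results of these data known. Expected counts were rounded and scaled with TMM (edgeR 4.0.16, R 4.3.3) over genes, spike-ins left out, that averaged at least 10 counts. Log2 ratios used a prior count of 0.5. The 95% interval of a ratio is an exact binomial one on rounded counts. Like the limit of 3 counts behind a 0, it covers only counting error, because no molecular identifiers are labelled and reads may not be independent molecules. The scaling was checked on simulated data.

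Named are all genes at 1 TPM or more in both libraries, the others by range, and from each pathway list the 3 with the highest mean TPM and the 1 with the largest absolute ratio among those with a mean count of at least 20. Others named below 1 TPM, and the sequences printed, were chosen after their values were seen. Protein sequences were not used here, so coding bases of GENCODE M21 transcripts were compared by global alignment (Biopython 1.88), and words of 50 bases were matched between the transcripts of all genes. Promoters are RefSeq's. Alternatives were the second table, posterior mean values, DESeq2 1.42.0 size factors, library and spike-in totals, other thresholds, filters and prior counts, and each library alone. Other steps used Python 3.11.15, pandas 2.3.3 and scipy 1.17.1.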

Additional observations from a re-analysis of the deposited data

How the results depend on the processing

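The count of 21 genes at 1 TPM or more in both libraries ran from 17 at a threshold of 2 TPM to 25 at 0.5 TPM or with TPM rescaled over nuclear protein-coding genes. With 1 library left out it was 21 to 22. With 1 library left out, the share of summed TPM was 21.4% to 22.9% for Wnts, 49.2% to 52.4% for Frizzleds, 16.9% to 18.3% for Sfrp genes, 7.88% to 8.54% for Dkk genes and 1.12% to 1.48% for R-spondins. With expected counts in place of TPM, which favours long transcripts, the shares were 19.8% for Wnts, 62.9% for Frizzleds, 9.05% for Sfrp genes, 7.46% for Dkk genes and 0.856% for R-spondins. The second table gave 23.2% for Wnts and 18.8% for Sfrp genes, and posterior mean TPM gave 23.4% for Wnts, and the cause was not tested. Among genes averaging at least 100 expected counts, 1 gene was at least 1.5-fold lower and 0 higher, because fewer genes are compared, and with no filter 5 were lower and 4 higher. Over 8 alternatives the median log2 ratio ran from -0.049 with library totals to -0.00098 with no filter. All lay within the median half-width of the single-gene intervals, a margin too wide to test a median. Of the 26 genes with a ratio, 22 kept its sign under each scaling, quantification and prior count tried. Fzd1, Fzd8, Wnt5a and Wnt6 turned sign near 0, and no ratio whose interval excludes 0 turned. Library totals moved all log2 ratios by -0.04. Ratios need both libraries, so leaving 1 out gives none. No paired analysis was possible because there is only 1 group. Depth limits the genes with 3 counts or fewer, whose levels and ratios are not determined.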
